A study of Mus musculus with 6 samples.

Results

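The transcripts described here are those of the ubiquitin-specific protease (USP) genes, the largest family of deubiquitinases. Members were every gene whose symbol is Usp followed by a number, and Usp18 was left out. This gave 46 of the 23863 genes in the deposited table. Of the 46, 38 averaged 1 RPKM or more across libraries (reads scaled for transcript length and library size, so that levels can be compared between genes) and passed this filter, as did 10531 genes in all. The other 8 (Usp13, Usp26, Usp29, Usp43, Usp44, Usp50, Usp51 and Usp54) were too weakly expressed for a half-life.

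The study asked how long mRNAs last in mature dendritic cells (maDC) with and without Mettl3, the enzyme that adds N6-methyladenosine (m6A) to mRNA. Bone marrow of 6-week-old C57BL/6 mice was cultured with IL-4 (1 ng/ml) and GM-CSF (10 ng/ml), CD11c+ cells were collected on magnetic beads, and all cells received LPS (100 ng/ml) for 24 h. Actinomycin D, which blocks transcription, was then given for 0, 3 or 6 h, and poly(A) RNA was sequenced with ERCC spike-in RNAs added according to total RNA. The groups were Mettl3 KO (labelled Mettl3-/-) at 0, 3 and 6 h and WT at 0, 3 and 6 h, with 1 library each and 6 libraries in all. In the KO mice a floxed Mettl3 allele was deleted by CD11c-Cre, so that only cells that had expressed CD11c lost an early part of the gene. The WT littermates are described as Mettl3 fl/fl, so both genotypes carry the floxed allele. The cells of a genotype were divided into the 3 times after LPS, so the times are parts of 1 culture and not replicates. The titles carry D2 for KO and D3 for WT without saying what these mean, and culture and genotype cannot be told apart. The study's methods name 2 littermate pairs of WT and KO mice for the lifetime experiment. Whether the 2 cultures sequenced here came from the same pair is not given. Because no group has a replicate, no p-value is given, and every difference below is between the 2 cultures.

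Ubiquitin is a small protein that cells attach to other proteins to send them to the proteasome, to sort them between membranes or to assemble signaling complexes. Deubiquitinases take it off again, and USP enzymes do so with a cysteine protease domain that grips ubiquitin like a hand. In dendritic cells ubiquitin chains carry the signal from TLR4, the LPS receptor, to NF-κB, and several USP enzymes trim chains on this route. The amount of an unstable mRNA follows transcription closely, and sequence in the 3′ UTR is one of the features known to set mRNA stability.

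Among 3′ UTR elements, the heptamer TATTTAT (with U for T in the RNA) is the core of AU-rich elements, which are known to shorten mRNA life in cytokine transcripts. The longest coding transcript of each gene (GENCODE M21, GRCm38/mm10) was searched for these letters on its own strand, with overlapping matches counted. They were present in 16 of the 38 USP transcripts (42.1%) and in 26.5% of the 9813 tested genes with an annotated transcript. USP 3′ UTRs are longer, with a median of 1457 bases against 906 bases over all genes, and per kb of 3′ UTR there were 0.372 sites in USP transcripts and 0.286 over all genes. To show what the match looks like at both ends of the stability range, the first site is printed for those of the 6 shortest-lived and 6 longest-lived USP transcripts in WT that have one, with the heptamer in capitals. Usp1, Usp47 and Usp46 are from the short-lived end of the WT order and Usp8, Usp48 and Usp11 from its long-lived end. In KO, Usp8 and Usp48 were slightly shorter-lived than the median gene. The windows lie on GRCm38 at chr4:98935364-98935390 (Usp1, plus strand), chr7:112111493-112111519 (Usp47, plus), chr5:74000933-74000959 (Usp46, minus), chr2:126759024-126759050 (Usp8, plus), chr4:137658443-137658469 (Usp48, plus) and chrX:20720128-20720154 (Usp11, plus).
Usp1: attttatatgTATTTATgaagatggct
Usp47: tgacgaagtaTATTTATagtgaagttc
Usp46: acattcagtcTATTTATggaggcactg
Usp8: tatatgtacaTATTTATtgcactgttg
Usp48: ttcttttctgTATTTATgaactttatt
Usp11: ctcctagtctTATTTATgctccccctc

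The heptamer therefore stood in the 3′ UTR of Usp11, the longest-lived USP transcript, and was absent from that of Usp2, the shortest-lived. The median half-life of the USP transcripts with the heptamer was 1.19 h in KO and 1.29 h in WT (n = 16 genes), and without it 1.22 h in KO and 1.26 h in WT (n = 22 genes). Over all tested genes the medians were 1.25 h in KO and 1.32 h in WT with it (n = 2599) and 1.401 h in KO and 1.49 h in WT without it (n = 7214). Within the USP family the medians with and without the heptamer thus lay close together, in one order in KO and in the other in WT. A match is a description of letters and does not show that a site is used.

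Depth was estimated from the steps between low RPKM values and lay between 18200000 and 21800000 reads per library, so that a tested USP transcript had between 19 and 4019 reads in a library, and 8 of the 38 had fewer than 100 reads in at least 1 library. Unless named as an SD, each value given as ± is a standard error (SE) from these approximate read numbers and covers counting error alone. All 12 dendritic cell markers were at a mean of 1 RPKM or more. They summed to 13633, 10159 and 13095 RPKM in KO at 0, 3 and 6 h, against 14820, 11433 and 16766 RPKM in WT. Single dendritic cell markers went both ways at 0 h. Fscn1 had 2584 RPKM in KO and 2357 RPKM in WT, and Ccl22 had 3879 RPKM in KO and 4409 RPKM in WT. Neutrophil markers (12 measured, 10 of them at a mean of 1 RPKM or more) summed to 14567, 10718 and 7097 RPKM in KO at 0, 3 and 6 h, against 7591, 8328 and 7037 RPKM in WT. Single markers did not all follow this sum, as Mmp8 had 34.8 RPKM in KO and 52.2 RPKM in WT at 0 h. The 12 macrophage markers measured summed to between 5941 and 7324 RPKM in KO, against 4808 to 6393 RPKM in WT, and B cell markers to 1.98 RPKM at most. In bulk RNA, fewer cells of a type and less RNA per cell cannot be told apart. Mettl3 itself had 6.99, 4.83 and 4.06 RPKM in KO, against 7.79, 2.68 and 2.59 RPKM in WT, and since RPKM is over the whole gene these values do not check the deletion.

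Before actinomycin D the 46 USP genes summed to 476.5 RPKM in KO and 470.6 RPKM in WT. Usp19 (chromosome 9, 108490602 to 108502337), which encodes a deubiquitinase anchored in the membrane of the endoplasmic reticulum, had the highest mean level (26.7 RPKM). Its values at 0, 3 and 6 h were 40.5, 20.7 and 20.4 RPKM in KO, against 38.5, 20.1 and 19.9 RPKM in WT. The KO and WT values of Usp19 lay close together at every time, and at 3 and 6 h its share of the library was nearly the same. Usp5, which takes apart free ubiquitin chains so that ubiquitin can be used again, had 26.3, 20.0 and 18.1 RPKM in KO, against 26.6, 20.2 and 14.9 RPKM in WT. At 0 h the 2 cultures were level for Usp5, and the WT value at 6 h was the lowest of the 6.

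Usp25, which trims ubiquitin from TRAF adaptors of innate receptors, had 40.5, 16.3 and 11.7 RPKM in KO, against 31.6, 14.7 and 8.46 RPKM in WT. The KO value was the higher at each time. Usp4, a deubiquitinase of spliceosome proteins and of signaling kinases, had 35.4, 15.2 and 11.6 RPKM in KO, against 34.9, 13.7 and 9.82 RPKM in WT. Usp12, which needs the scaffold protein Wdr48 for activity, had 26.5, 11.0 and 8.99 RPKM in KO, against 23.0, 10.0 and 8.80 RPKM in WT. For Usp4 and Usp12 both cultures lost most of the RPKM by 3 h and less after it.

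Usp8, which acts on cargo at endosomes, had 21.6, 11.3 and 9.84 RPKM in KO, against 22.4, 13.6 and 10.8 RPKM in WT. Here the WT value was the higher at each time. At the filter itself, Usp53 (mean 1.02 RPKM) was just inside, with 1.999, 0.666 and 0.584 RPKM in KO, against 1.70, 0.509 and 0.660 RPKM in WT. Usp54 (mean 0.69 RPKM) was just outside, with 1.03, 0.383 and 0.506 RPKM in KO, against 1.26, 0.485 and 0.491 RPKM in WT. Usp53 and Usp54 encode closely related proteins. The remaining 7 genes below the filter were nearly silent. Usp26 and Usp43 were at 0 RPKM in every library, and the 5 others reached 0.108 RPKM at most (Usp50 in WT at 0 h).

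**Figure D1:**
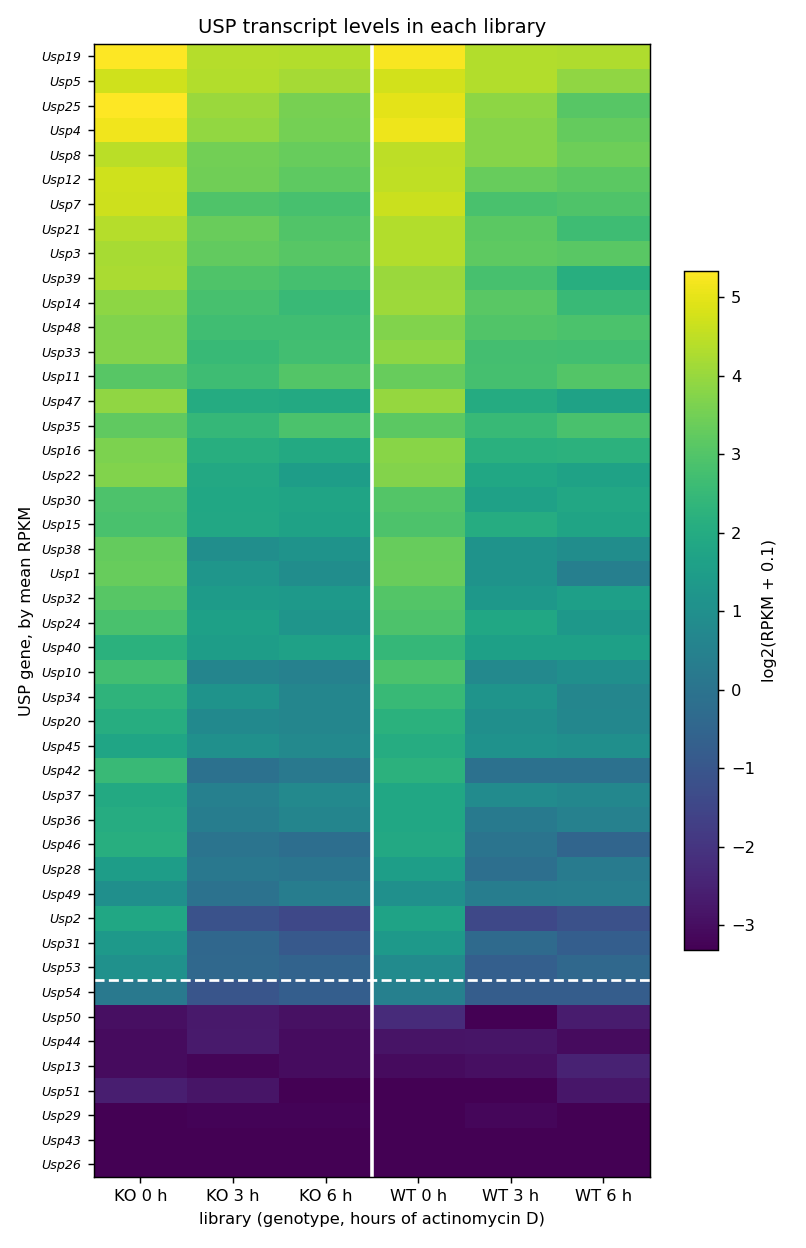
Level of the 46 USP genes in each library, as log2 of RPKM plus 0.1 (color), with the KO libraries left of the WT libraries and genes ordered by mean RPKM. The dashed line marks the filter at a mean of 1 RPKM, and the 0 h column of each genotype is the brightest for most genes.

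Decay was measured on RPKM multiplied by a single ERCC factor per library, which makes the values amounts of mRNA per total RNA. The decay rate k is the loss in log2 units per hour, measured over the first 3 h and over all 6 h, and the half-life is 2 over the sum of these rates. The median USP half-life was 1.21 h in KO and 1.28 h in WT (n = 38 genes), against 1.37 h in KO and 1.45 h in WT over all 10531 genes. USP half-lives ran from 0.796 to 1.76 h in KO and from 0.829 to 1.77 h in WT. They were also packed closely, since the 75th percentile was 1.25 times the 25th in KO and 1.26 times in WT, against 1.46 and 1.53 times over all genes. The median USP transcript lay at percentile 32.0 of all half-lives in KO and 33.5 in WT.

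In both cultures 28 of the 38 USP transcripts had a shorter half-life than the median gene, which held for 45.5% of all tested genes. A longer half-life than the median gene in both cultures was found for 5 USP transcripts (Usp5, Usp11, Usp35, Usp40 and Usp49), which held for 45.5% of all tested genes too. None was 1.5-fold or more longer-lived than the median gene in both, as 10.4% of all tested genes were. USP genes are long, with a median coding length of 2911.5 bases against 1323 bases over all genes, and over all genes half-lives were shorter where coding length was greater (Spearman's rho -0.32 in KO and -0.29 in WT across 9813 genes, which share libraries and scaling). Among the 2093 tested genes of 2000 to 4000 coding bases, the medians were 1.26 h in KO and 1.34 h in WT, and 58.5% were shorter-lived than the median gene in both cultures. Of the 23 USP transcripts in that band 14 were (60.9%), with medians of 1.21 h in KO and 1.30 h in WT. Of the 9 USP transcripts with under 2000 coding bases (Usp2, Usp3, Usp12, Usp14, Usp21, Usp22, Usp30, Usp39 and Usp46) all 9 were, beside 41.3% of the 7140 genes of that length. Of the 6 USP transcripts above 4000 coding bases 5 were, beside 69.5% of 580 genes. The share of short-lived transcripts was thus near that of other genes in the middle band and higher at both ends, which hold few members, and the part of length in the family's half-lives was not tested. Within the family, half-life and coding length were nearly unrelated (rho -0.08 in KO and -0.04 in WT across 38 genes).

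**Figure D2:**
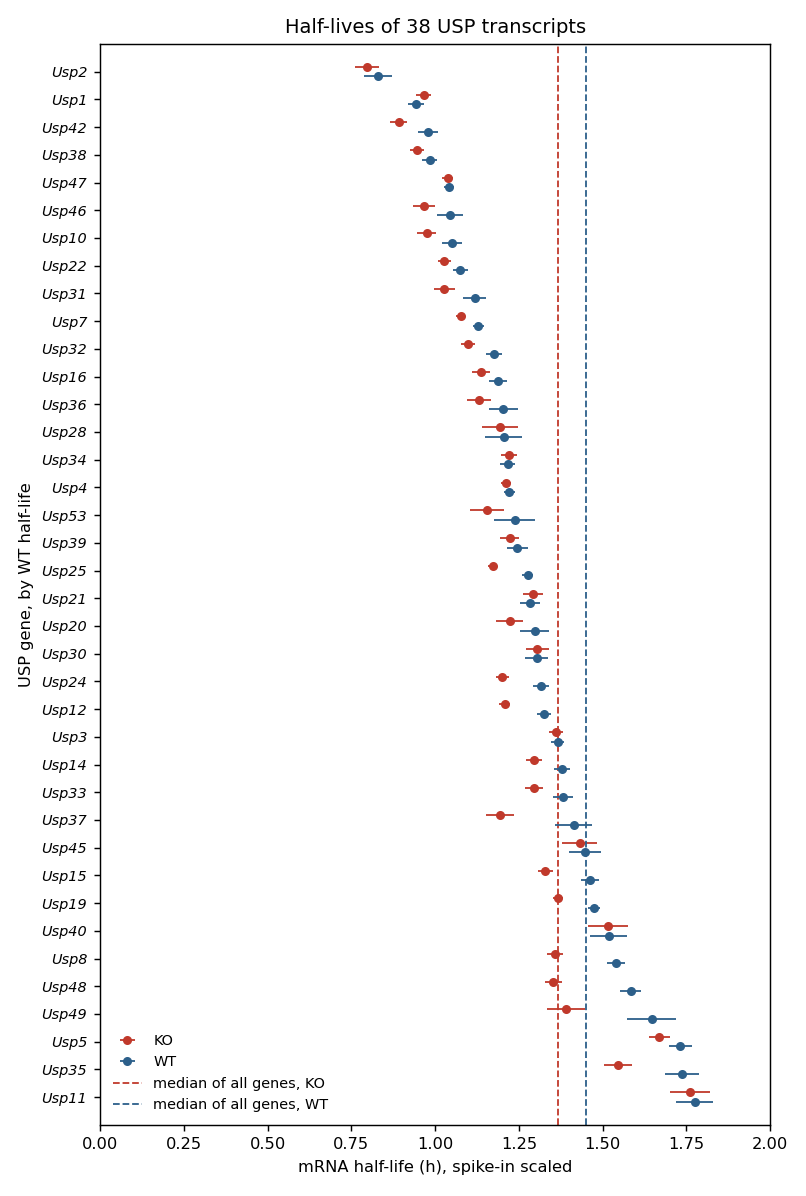
Half-life in hours of the 38 USP transcripts that passed the filter, KO above WT for each gene, with counting SE as bars and the median of all genes as dashed lines (1.37 h in KO, 1.45 h in WT). Genes are ordered by WT half-life from Usp2 at the top (0.829 h) to Usp11 at the bottom (1.77 h).

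The shortest-lived was Usp2 (chromosome 9, 44067021 to 44095627), whose product is known for stabilizing cyclin D1. It had 3.46, 0.358 and 0.264 RPKM in KO, against 3.14, 0.265 and 0.346 RPKM in WT. This gave half-lives of 0.796 ± 0.036 h in KO and 0.829 ± 0.042 h in WT, and Usp2 was the only USP transcript at least 1.5-fold shorter-lived than the median gene in both cultures, as 3.08% of all tested genes were. At 3 and 6 h Usp2 rested on 19 to 30 reads and lay near the pseudocount of 0.1 RPKM. With a pseudocount of 1 RPKM its half-lives were 1.08 h in KO and 1.16 h in WT, and it was no longer 1.5-fold below the median gene.

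Usp1, which removes ubiquitin from FANCD2 and PCNA during DNA repair, had 9.88, 2.25 and 1.80 RPKM in KO, against 10.2, 2.10 and 1.24 RPKM in WT. Its half-life was 0.965 ± 0.024 h in KO and 0.944 ± 0.023 h in WT, and at 6 h the KO value was the higher. Usp42, a nuclear deubiquitinase of p53, had 5.75, 0.850 and 1.04 RPKM in KO, against 4.59, 0.849 and 0.834 RPKM in WT. Its half-life was 0.891 ± 0.025 h in KO and 0.979 ± 0.031 h in WT. Both transcripts were far below their 0 h level from 3 h on in each culture.

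Usp38, described as a brake on TBK1 in antiviral signaling, had 9.75, 1.86 and 2.11 RPKM in KO, against 10.0, 2.07 and 1.78 RPKM in WT. Usp47, which acts on DNA polymerase beta in base excision repair, had 14.8, 3.97 and 3.76 RPKM in KO, against 15.5, 3.94 and 3.06 RPKM in WT. Usp46, like Usp1 and Usp12 a partner of Wdr48, had 4.23, 0.904 and 0.768 RPKM in KO, against 3.67, 0.916 and 0.612 RPKM in WT. For these 3 genes neither culture was the higher at every time, and half-lives lay between 0.947 h (Usp38) and 1.04 h (Usp47) in KO and between 0.984 h (Usp38) and 1.04 h (Usp47 and Usp46) in WT. In the order of WT half-lives over the 38 genes, only 2 of 37 neighboring pairs lay more than 2 counting SE apart (Usp2 below Usp1, and Usp38 below Usp47), so most places in this order are not resolved at this depth.

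At the other end stood Usp11 (chromosome X, 20703906 to 20720539), a partner of BRCA2 in homologous recombination, with 8.41, 6.18 and 7.99 RPKM in KO, against 10.1, 6.80 and 7.98 RPKM in WT. Its half-life was 1.76 ± 0.060 h in KO and 1.77 ± 0.056 h in WT, the longest of the family in both cultures. Without the 3 h libraries its half-life was 3.46 h in KO and 2.21 h in WT, and with no spike-in scaling 12.6 h in KO and 8.31 h in WT, so its size and the order of the cultures depend on these choices. Usp35 had 9.34, 5.39 and 7.36 RPKM in KO, against 8.84, 5.65 and 7.07 RPKM in WT. In both cultures Usp11 and Usp35 took a larger share of the library at 6 h than at 3 h, and on scaled amounts they kept more at 6 h than the other USP transcripts (30.1% and 25.01% of the 0 h amount in KO, against 15.2% and 15.3% in WT).

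Usp49, a deubiquitinase of histone H2B in human cells, had 1.89, 0.857 and 1.16 RPKM in KO, against 1.92, 1.17 and 1.19 RPKM in WT. Its KO value was the lower mainly at 3 h (about 152 reads in KO and 207 in WT), with half-lives of 1.39 ± 0.057 h in KO and 1.65 ± 0.073 h in WT. Usp37 had a similar gap at 3 h, with 1.26 RPKM in KO and 1.70 RPKM in WT. In the annotation 51.2% of Usp49 exon bases also belong to the gene model Gm20517 on the same strand, so its reads may not all be its own. Usp48, which acts on nuclear RelA in human cells, had 12.8, 6.32 and 6.35 RPKM in KO, against 12.9, 7.84 and 7.26 RPKM in WT. Its half-life was 1.35 ± 0.025 h in KO and 1.58 ± 0.032 h in WT, beside 1.36 ± 0.023 h in KO and 1.54 ± 0.027 h in WT for Usp8 and 1.67 ± 0.032 h in KO and 1.73 ± 0.034 h in WT for Usp5. In WT, Usp5, Usp35 and Usp11 did not differ beyond their counting SE.

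The order of stability was nearly the same in both cultures (Spearman's rho 0.95 across 38 genes, 0.94 across all 10531 genes, which share libraries and scaling). The course of decay was not. At 3 h a median of 9.74% of the 0 h amount of the USP transcripts was left in KO and 15.6% in WT, and at 6 h a median of 11.6% was left in KO and 6.85% in WT. The medians of all genes had the same course, with 12.2% and 15.3% left in KO at 3 and 6 h, against 19.3% and 8.66% in WT. Between 3 and 6 h the scaled amount was higher at the later time for 35 of 38 USP transcripts in KO (83.5% of all genes), and for 0 of 38 in WT (0.864% of all genes). Amounts that are higher after 6 h than after 3 h without transcription are not a decay, and they moved with the ERCC factors, which were 0.302 and 0.410 in KO at 3 and 6 h, against 0.362 and 0.191 in WT. The part of these factors in the course was not tested.

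**Figure D3:**
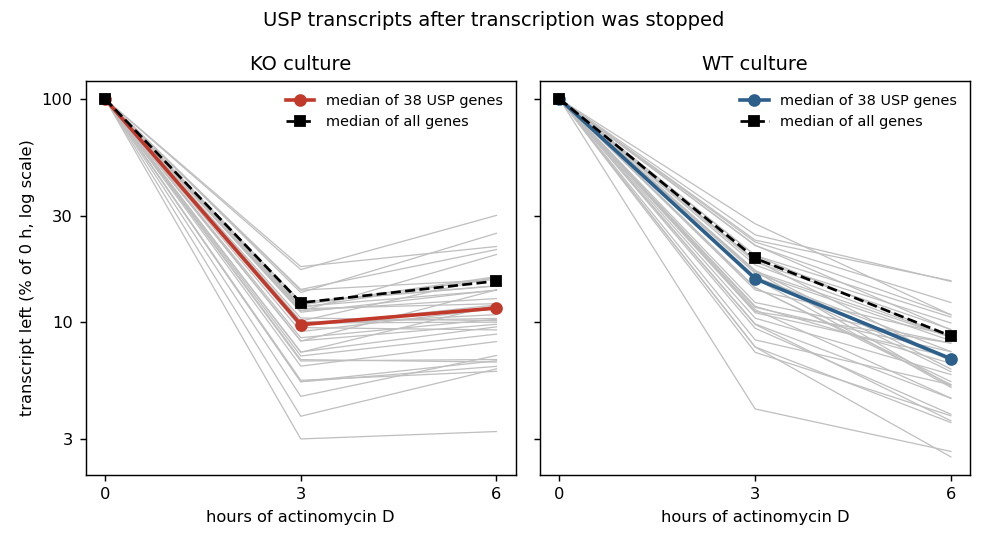
Percent of the 0 h amount left after 3 and 6 h of actinomycin D on a log scale, KO left of WT, after ERCC scaling. Each thin line is 1 of 38 USP transcripts, the colored line is their median (9.74% and 11.6% in KO, 15.6% and 6.85% in WT) and the dashed line is the median of all genes.

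Change from 3 to 6 h was also measured against the median gene, which no library factor can move. In both cultures 11 of 38 gained on the median gene from 3 to 6 h (37% of all tested genes), among them Usp11, Usp35, Usp49, Usp40 and Usp19. Usp35 gained 0.54 in KO and 0.52 in WT on the log2 scale and Usp11 0.46 in KO and 0.43 in WT. In both cultures 14 of 38 lost on the median gene (37% of all tested genes), with Usp25 at -0.38 in KO and -0.59 in WT and Usp34 at -0.39 in KO and -0.32 in WT. Neither count exceeded its share of all genes, so these values describe single members. Usp5, among the longest-lived by the mean of both rates, was on the losing side in both (-0.05 in KO and -0.23 in WT).

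The comparison of KO with WT asks whether loss of Mettl3 went with another level or another decay of USP mRNA. A transcript was counted as higher or lower in KO when its ratio to WT, relative to the median gene, reached 1.5-fold on the same side at each of the 3 times. On scaled amounts the median gene itself stood at log2 ratios of 0.40, -0.26 and 1.19 at 0, 3 and 6 h, and this shift was taken off. By this rule 0 of 38 USP transcripts were higher in KO (1.7% of all tested genes) and 0 were lower (0.845%). On scaled amounts, with the shift kept, 0 were higher (2.26%) and 0 were lower (0.0855%). Since this shift was below 0 at 3 h and above 0 at 0 and 6 h, these counts are not a second check on level. At single times, 0 of 38 USP transcripts reached 1.5-fold at 0 h (7.37% of all genes), 0 at 3 h (10.6%) and 1 at 6 h (13.3%), which was Usp10.

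The mean over the 3 times of the relative log2 ratio of KO to WT had a median of -0.05 over the USP transcripts and ran from -0.31 (Usp10) to 0.30 (Usp39). Usp10 (chromosome 8, 119910360 to 119957560), a deubiquitinase of p53 that binds the stress granule proteins G3bp1 and G3bp2, had 6.49, 1.43 and 1.30 RPKM in KO, against 7.25, 1.59 and 1.91 RPKM in WT. Its relative log2 ratio was -0.18, -0.14 and -0.62 at 0, 3 and 6 h, so the low mean came mostly from the 6 h libraries, in which it had about 88 reads in KO and 141 in WT (SE of the log2 ratio at 6 h 0.20). Usp39 (chromosome 6, 72318678 to 72345184), a spliceosome protein of the USP fold without deubiquitinase activity, had 18.6, 7.74 and 6.79 RPKM in KO, against 16.2, 6.97 and 4.25 RPKM in WT. Its relative log2 ratio was 0.17, 0.15 and 0.57, again with the largest value at 6 h. Usp25 came next on the higher side, at 0.33, 0.15 and 0.38 (mean 0.29 ± 0.12, SD over the 3 times). The same SD was 0.24 for Usp39 and 0.26 for Usp10. It is a spread over times of 1 culture per genotype and not over replicates.

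**Figure D4:**
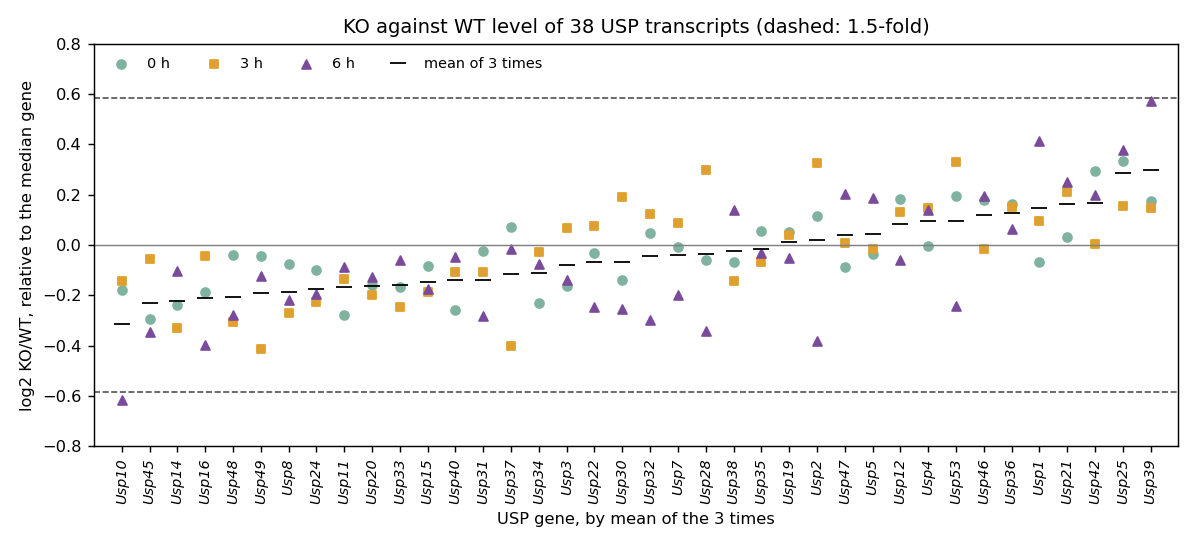
Log2 ratio of KO to WT for each of 38 USP transcripts at 0 h (circles), 3 h (squares) and 6 h (triangles), relative to the median gene, with the mean of the times as a bar. The dashed lines mark 1.5-fold, and only Usp10 at 6 h (-0.62) lies beyond them.

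With no threshold of size, 5 of 38 USP transcripts were above the median gene in KO at all 3 times (Usp21, Usp25, Usp36, Usp39 and Usp42, against 26.7% of all tested genes) and 15 were below it at all 3 times (26.4% of all tested genes). Those below were Usp8, Usp10, Usp11, Usp14, Usp15, Usp16, Usp20, Usp24, Usp31, Usp33, Usp34, Usp40, Usp45, Usp48 and Usp49. They differed by little, since the means of the 15 ran no further than the -0.31 of Usp10. Usp20, a deubiquitinase of the ER and of the VHL pathway, was the most even of them at -0.16, -0.20 and -0.13. Over all genes the same ratio was weakly lower where coding length was greater (rho -0.20 across 9813 genes), and within the family the 2 were unrelated (rho 0.00098 across 38 genes). The summed neutrophil, macrophage and dendritic cell markers given above also differed between the cultures, and their part in these ratios was not tested.

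Decay was counted as faster or slower in KO when half-lives were at least 1.5-fold apart with the 3 h and 6 h rates on the same side. Relative to the median gene, 0 of 38 USP transcripts decayed faster in KO (0.902% of all tested genes) and 0 slower (1.03%). On scaled amounts 0 were faster (0.798%) and 0 slower (0.57%). The counts on scaled amounts could only be 0, because the 3 h and 6 h rates of every member lay on opposite sides, as given below. The ratio of KO to WT half-life ran from 0.845 to 1.02, with a median of 0.941, beside 0.940 over all genes. Half-life was shorter in KO for 34 of 38 USP transcripts and for 77.8% of all genes. This direction held for 1 of the 2 rates alone. The rate to 3 h was higher in KO for 38 of 38 USP transcripts (97.3% of all genes), and the rate to 6 h was higher in KO for 0 of 38 (2.298% of all genes).

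Relative to the median gene, the difference in k between KO and WT ran from -0.07 (Usp1) to 0.09 (Usp37) log2 units per hour, with a median of 0.0035. Usp37, a cell cycle deubiquitinase of cyclin A, had 3.77, 1.26 and 1.61 RPKM in KO, against 3.52, 1.70 and 1.52 RPKM in WT. The cultures differed for Usp37 mainly at 3 h, and the half-life was 1.19 ± 0.042 h in KO and 1.41 ± 0.055 h in WT. The core of the m6A consensus, GGACT, occurred in USP mRNAs at a median of 1.06 per kb, close to the 1.05 per kb of all genes, as counted on the transcript strand over the whole transcript. The rank correlation of its density with the difference in k was -0.03 across 38 USP genes and -0.03 across 9813 genes. For its number per mRNA, which follows transcript length, it was 0.26 across 38 USP genes and -0.01 across 9813 genes. Whether any of these letters carried m6A was not measured in these libraries.

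The members were then grouped by what their products do. Of the 15 listed with innate immune and NF-κB signaling, 14 passed the filter, with a median half-life of 1.22 h in KO and 1.28 h in WT. Of these 14, 10 were shorter-lived than the median gene in both cultures. That held for 28 of the 38 members and for 45.5% of all tested genes. Values in this list ran from Usp2 to Usp11, the 2 ends of the whole family. Usp7, which stabilizes both Mdm2 and p53 and binds Gmps, had 25.4, 7.61 and 7.02 RPKM in KO, against 25.1, 7.16 and 7.59 RPKM in WT, and a half-life of 1.08 ± 0.014 h in KO and 1.13 ± 0.016 h in WT. The 9 members of DNA repair and p53 control, Usp7 among them, had medians of 1.08 h in KO and 1.13 h in WT. Of the 9, 7 were shorter-lived than the median gene in both. The lists share members such as Usp7, so their counts are not separate results.

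The 8 tested members that act on histones and chromatin (of 10 listed) had medians of 1.13 h in KO and 1.20 h in WT. Of the 8, 7 were shorter-lived than the median gene in both cultures, with Usp49 as the exception. The share was 28 of 38 in the family and 45.5% of all tested genes. Usp22, the H2B deubiquitinase of the SAGA coactivator, had 13.0, 3.67 and 2.72 RPKM in KO, against 13.1, 3.48 and 3.05 RPKM in WT, and a half-life of 1.03 ± 0.020 h in KO and 1.08 ± 0.021 h in WT. Its SAGA partners differed in stability, with 1.18 h in KO and 1.31 h in WT for Atxn7l3. Atxn7 had 1.38 h in KO and 1.51 h in WT, and Eny2 1.89 h in KO and 1.89 h in WT. All 3 Wdr48-bound members (Usp1, Usp12 and Usp46) were shorter-lived than the median gene in both cultures, as 45.5% of all tested genes were. Their medians were 0.968 h in KO and 1.04 h in WT, and Wdr48 itself had 1.28 h in KO and 1.31 h in WT.

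Members of endosomes, ER and mitochondria (6 tested) had medians of 1.30 h in KO and 1.34 h in WT. All 6 were shorter-lived than the median gene in KO, as 32 of the 38 family members were. In both cultures 4 of the 6 were, a share close to that of the whole family (28 of 38, beside 45.5% of all tested genes). Usp30, a deubiquitinase of the mitochondrial outer membrane that opposes mitophagy, had 7.42, 3.47 and 3.21 RPKM in KO, against 8.04, 3.03 and 3.61 RPKM in WT, and half-lives of 1.31 ± 0.035 h in KO and 1.30 ± 0.034 h in WT. Of the 3 members of the proteasome and free chains, Usp13 was below the filter, Usp5 was among the longest-lived, and Usp14, which sits on the proteasome, had 1.29 ± 0.024 h in KO and 1.38 ± 0.025 h in WT. Usp14 shares 26.0% of its exon bases with Thoc1 on the opposite strand, as Usp38 does 20.5% with Gm9725, Usp33 15.3% with Gm43857 and Usp34 11.6% with Ahsa2, and such reads cannot be assigned with certainty. Among the 12 tested partner proteins, 10 were shorter-lived than the median gene in both cultures, as 45.5% of all tested genes were. Their medians were 1.18 h in KO and 1.28 h in WT, and half-lives ran from Gmps (0.994 h in KO and 1.02 h in WT) to Eny2.

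Other deubiquitinase families were set beside USP as a description. Their genes were listed by family and not by enzyme activity, so the lists do not stand for an enzyme class. A total of 33 genes of the OTU, UCH, Josephin, JAMM, MINDY and ZUFSP families were tested, with medians of 1.36 h in KO and 1.402 h in WT. Of these 33, 16 were shorter-lived than the median gene in both cultures and 14 longer-lived in both, against 28 and 5 of the 38 USP transcripts. Each direction held for 45.5% of all tested genes. The 11 OTU genes were close to USP (1.21 h in KO and 1.23 h in WT), and the 11 JAMM genes, which include proteasome and translation factor subunits, were longer-lived (1.49 h in KO and 1.64 h in WT). No gene of these families or of the partners was counted as different in level or decay.

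**Figure D5:**
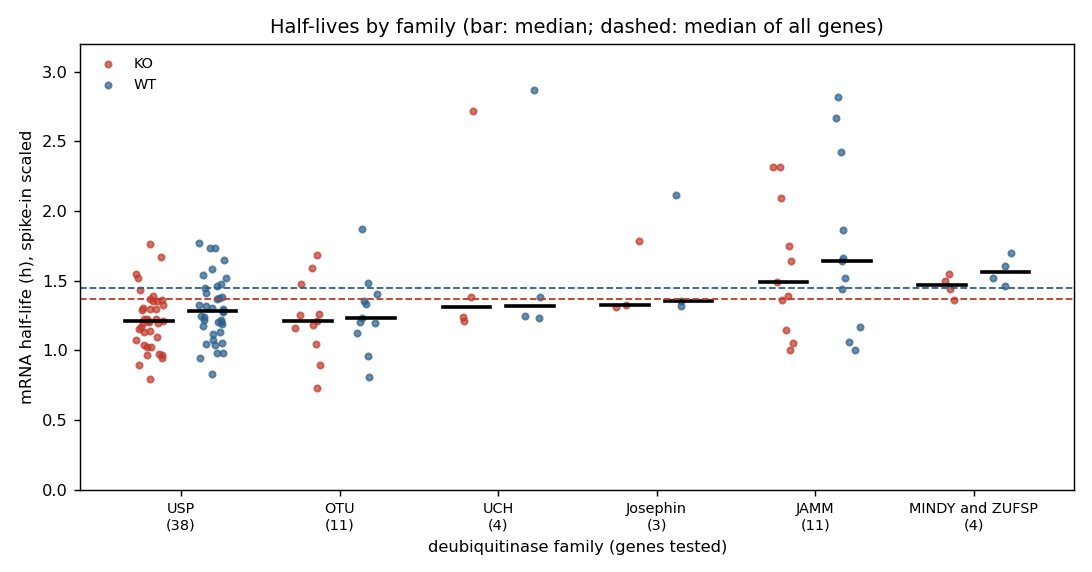
Half-life in hours of every tested gene of the USP family and of the other deubiquitinase families, KO left of WT, with black bars for medians and dashed lines for the median of all genes. The USP median is 1.21 h in KO and 1.28 h in WT, and the JAMM median is 1.49 h in KO and 1.64 h in WT.

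Usp18, which removes the ubiquitin-like protein ISG15 and is induced by interferon, was not a member by the rule. It had 186.9, 87.0 and 83.5 RPKM in KO, against 110.3, 50.4 and 37.2 RPKM in WT, and was counted as higher in KO (relative log2 ratio 0.74, 0.79 and 1.07 at 0, 3 and 6 h). Its half-life of 1.30 h in KO and 1.31 h in WT lay within the range of the members. Of the other USP-fold genes outside the rule, Cyld, a deubiquitinase of NF-κB signaling, had 17.3, 6.72 and 6.28 RPKM in KO, against 17.9, 7.58 and 6.58 RPKM in WT, and was not counted in either direction.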

How the data were processed

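The authors deposited RPKM for 23863 gene symbols and 92 ERCC transcripts. Every library's column had been raised by 1 and multiplied by a constant, which was undone here with the column minimum. A further 2 columns, with the lifetimes that the authors computed for each genotype, were not used. The submitters' processing notes name bcl2fastq, TopHat2 2.0.14, Cuffnorm and mm10. The labels name a different library kit from the study's methods, and the gene annotation and strandedness were not given in the sources used here. Reads of genes that overlap can therefore not be separated. Groups were taken from the sample labels. Of the gene sheet, 27 symbols turned into dates were left out.

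ERCC factors were medians of centered log2 values over the 75 spike-ins above 0 in all libraries. Values were raised by 0.1 RPKM (pseudocount) ahead of scaling, so ratios of weakly expressed genes are understated. Rates under 0.02 per h were set to 0.02. Counts relative to the median gene kept the WT rates on the spike-in scale. Reads were approximated from the RPKM steps of genes with 1 annotated transcript of 1500 to 6000 bases, which is a rough estimate of depth. Members, gene lists, thresholds and alternatives were chosen with earlier results of these data known. Values in all libraries were given for the 6 highest, the 6 shortest-lived and the 6 longest-lived members, those counted as different and those next to the filter. Usp7, Usp10, Usp22, Usp30, Usp37 and Usp39 were added after their values were seen. Of other lists up to 2 members at each end were named, with Mettl3, Usp18, Wdr48, Atxn7, Atxn7l3 and Cyld. Alternatives were pseudocounts of 0.01 and 1 RPKM, filters, leaving out a time, no spike-in scaling, the authors' factors, a fitted slope and a 2-fold threshold. Scripts used Python 3.11.15, pandas 2.3.3, NumPy 2.4.6, SciPy 1.17.1 and Matplotlib 3.10.9 and were tested on simulated data. Results for the list of ubiquitin genes are not reported here.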

Additional observations from a re-analysis of the deposited data

Results flagged for a closer look

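From 3 to 6 h of actinomycin D the USP transcripts moved in opposite directions in the 2 cultures on spike-in scaled amounts. The median log2 change was 0.29 in KO (35 of 38 transcripts higher at 6 h) and -1.05 in WT (0 of 38 higher at 6 h). The difference between the cultures was not tested, since each rests on 1 library per time. All genes moved likewise, with medians of 0.35 in KO and -1.12 in WT. The ERCC factors at 3 and 6 h were 0.302 and 0.410 in KO, against 0.362 and 0.191 in WT. Before scaling, the summed RPKM of the 46 USP genes was lower at 6 h than at 3 h in both cultures. It went from 206.7 to 187.5 RPKM in KO and from 208.1 to 178.3 RPKM in WT. The part of the factors in the opposite directions was not tested.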

How the results depend on the processing

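The counts of USP transcripts that differed between KO and WT in level or decay were 0 under every alternative run. Several of these could give no other count. A 2-fold threshold is stricter than the 1.5-fold rule. For level, other library factors cancel because the median ratio is taken off. Leaving out a time keeps 0 h or 3 h, at which no member reached 1.5-fold. On scaled amounts the shift of the median gene lay on different sides at different times. No member had both decay rates on the same side there. The fitted slope was not run for these counts. The median USP half-life depended on times and scaling. Without the 3 h libraries, and equally with a line through the 3 times (the same rate by construction), it was 1.93 h in KO and 1.55 h in WT, so the order of the cultures turned round, and 8 transcripts were longer-lived than the median gene in both. Without the 6 h libraries it was 0.893 h in KO and 1.12 h in WT. With no spike-in scaling it was 2.96 h in KO and 2.96 h in WT, and its ratio to the median of all genes was 0.718 in KO and 0.731 in WT, against 0.885 in KO and 0.884 in WT with scaling. With a mean of at least 5 RPKM, 18 members were left, of which 13 were shorter-lived and 3 longer-lived than the median gene in both, fewer because fewer members were counted. Of the summary values recomputed under alternatives, 82 stayed near the value given above and 14 are those given here. Of the values of single members, 204 stayed near and 194 moved, mostly half-lives without a time, with a slope, without scaling or with the authors' factors, so single half-lives hold only for the processing given. No paired analysis was possible because each group is 1 library and the culture marks differ between KO and WT. Depth limits the weakest transcripts most, as those of under 100 reads in a library.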
